A study of Mus musculus with 24 samples.

Results

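The comparison described here asks whether the joint loss of Smad2 and Smad3 changes each RNA by the sum of the changes seen with either loss alone. It used 8 of the 24 samples of the series, the RNA libraries of embryoid bodies at day 4. For each gene the contrast was the log2 level in the Smad2/3 double knockout, minus that in the Smad2 knockout, minus that in the Smad3 knockout, plus that in wild type (WT). A value of 0 means that the 2 single effects add on the log2 scale. A positive value means that the double knockout was higher than this sum, and a negative value that it was lower. The contrast could be tested for 19098 of the 53379 genes in each table, with no choice by its value, and the genes named are a fixed panel and the called genes picked by the rule given with the processing.

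SMAD2 and SMAD3 are the receptor-activated SMAD proteins of the Nodal, Activin and TGF-beta branch. Phosphorylated by activated receptors, they form complexes with SMAD4 and act in the nucleus with partners such as FOXH1. In the early mouse embryo this signalling maintains the epiblast and is needed for the primitive streak, mesoderm and endoderm. Embryoid bodies are floating aggregates in which embryonic stem cells differentiate once the cytokine LIF is withdrawn.

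All groups were made from the mouse embryonic stem cell line E14Tg2a.IV, as 2 libraries of total RNA each. The double knockout carried the genotype label Smad2/3DKO, the Smad2 knockout Smad2-/- and the Smad3 knockout Smad3-/-, and the WT libraries are labelled Wild type. Markers of the epiblast and primitive streak were present in both WT libraries at day 4, among them Fgf5 (178 and 158 CPM) and Eomes (227 and 224 CPM), in counts scaled to a common library total. Each knockout genotype is represented by 1 line number in the library names, so a difference between genotypes and one between lines cannot be told apart. The labels do not name separate cultures for the 2 libraries of a genotype, and p-values therefore cover only the spread between libraries, which may be technical. In such bulk samples fewer cells of a type and less RNA per cell cannot be told apart.

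Depth was 35733249 to 53672980 expected counts per library, and log2 TPM (length-scaled transcript abundance) of the libraries of a group correlated at r = 0.942 to 0.985 across genes. The library names fall into 2 series, with replicate 2 of the Smad2 knockout, the Smad3 knockout and WT in the second and both double knockout libraries in the first; the labels name no batch. The Smad2 knockout stood apart in composition. Transcripts of protein-coding genes with a ribosomal protein symbol (Rps or Rpl and a digit) took 13.4 and 12.7% of its counts. They took 6.64 and 6.09% in the double knockout, 7.88 and 7.76% in the Smad3 knockout and 5.77 and 6.85% in WT.

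The contrast moved with transcript length. Genes were placed in 6 equal groups of 3183 by effective length, from a median of 568 bases to one of 4962 bases. The median interaction was -0.96 in the shortest sixth and 0.85 in the longest. Over the same sixths the Smad2 knockout minus WT ran from 0.84 to -0.87, whereas the double knockout minus WT stayed between -0.08 and 0.00 and the Smad3 knockout minus WT between -0.10 and 0.05. Calls are therefore also given from a fit with a length offset, in which a smooth curve of each library on log2 length was removed. With that offset the medians lay between -0.05 and 0.15. Whether the length trend is biological or arises in library preparation was not tested.

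**Figure D1:**
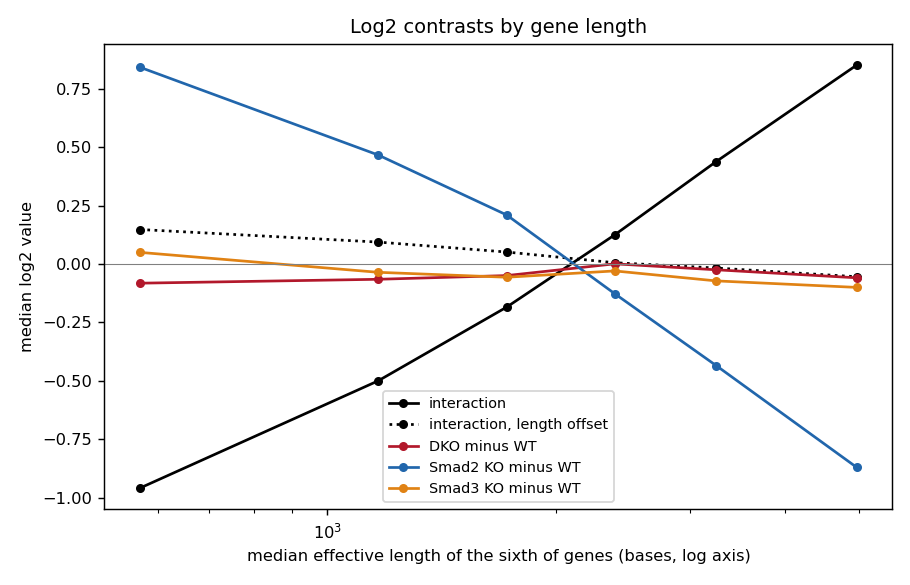
Median log2 value of the tested genes in each sixth of effective length (log axis, bases), for the interaction, the interaction with a length offset, and the 3 knockouts minus WT. The interaction runs from -0.96 to 0.85 and mirrors the Smad2 knockout, while the double and Smad3 knockouts lie near 0.

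RNA of the targeted genes gives a limited check of the labels. Levels are given as CPM, counts scaled to a common library total, for replicates 1 and 2. Smad2 (chr18:76241580-76310963, plus strand, GRCm38) had 23.1 and 23.6 CPM in the double knockout, 20.1 and 21.3 CPM in the Smad2 knockout, 39.9 and 40.9 CPM in the Smad3 knockout and 52 and 39.9 CPM in WT. The double and Smad2 knockout libraries were all below the others, and the interaction was 0.36 (SE 0.27; adjusted p = 0.365). Smad3 (chr9:63646767-63757994, minus strand) had 29.2 and 26.8 CPM in the double knockout, 32.2 and 32.4 CPM in the Smad2 knockout, 51.7 and 50.7 CPM in the Smad3 knockout and 43.8 and 46.7 CPM in WT. Both Smad3 knockout libraries were above WT, so gene-level RNA does not check the Smad3 genotype. The sources used here do not say which part of either gene was altered. The interaction of Smad3 was -0.39 (SE 0.23; adjusted p = 0.264), and -1.22 with the length offset (adjusted p = 0.034). On log2(TPM + 1), where the median of all genes was 0.63, its sign turned (0.18).

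Of the 19098 genes, 2882 (15.1%) were called at a Benjamini-Hochberg adjusted p under 0.05 by edgeR's quasi-likelihood test. The double knockout was higher than additive for 1766 genes (9.25%) and lower for 1116 (5.84%). The calls rest on 2 libraries a group: without either double knockout library 19 or 12 genes were called, and without either Smad3 knockout library 114 or 21. Without Smad2 knockout replicate 1, 978 genes were called, and without WT replicate 2, 6651. No called gene changed sign in any fit that left out 1 library. With the 2 series of library names as a term 3475 genes were called, 2751 of them in the same direction as before. With the length offset 813 genes were called, 663 of them called in the same direction before, and 130 of the 2882 changed sign without being called.

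The genes fall into 5 classes by what the single knockouts did, with 0.5 on the log2 scale as the limit. Among the called genes, 251 showed no single effect past this limit and moved in the double knockout alone, and 137 moved beyond the sum of the single effects. A further 915 moved in the direction of the sum but short of it, and 1439 stood on the other side of WT from it. The remaining 140 had single effects that cancelled. Short of the sum and turned together made up 81.7% of the called genes, against 54.4% of all genes tested. The classes and the contrast share libraries, so this share is a description, and the class of a gene rests on its estimates rather than on a test of each effect. With that offset 67 of the 251 genes of the double knockout alone and 72 of the 137 beyond the sum were still called, against 180 of 915 short of it and 318 of 1439 turned.

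**Figure D2:**
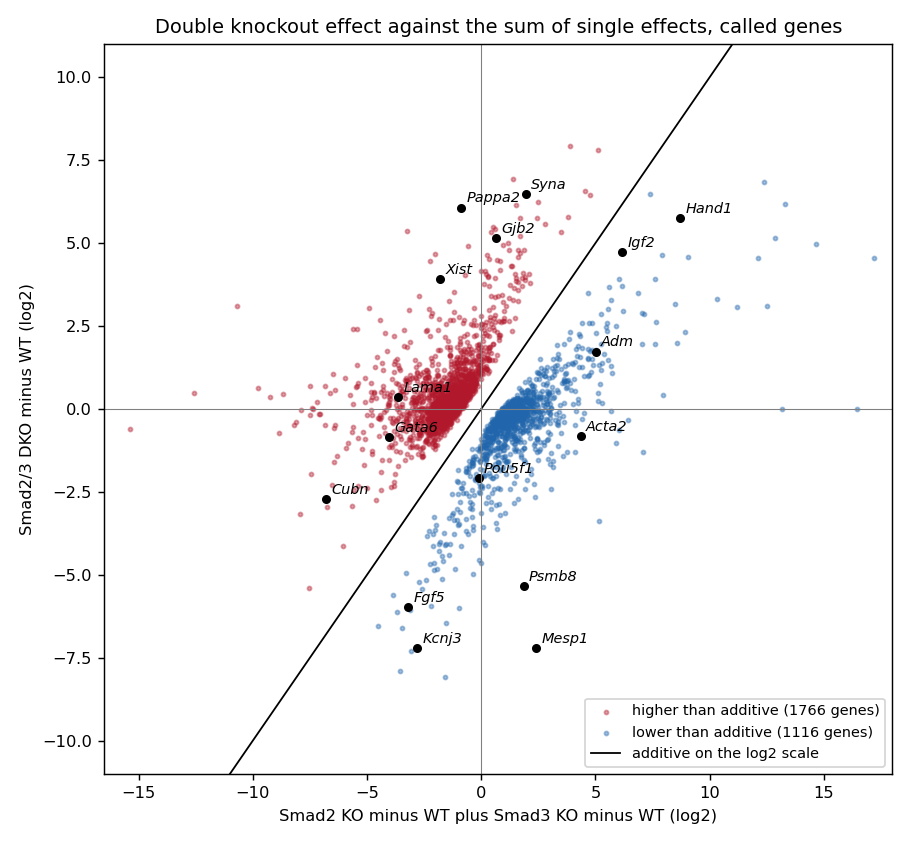
Each of the 2882 called genes by the sum of the Smad2 and Smad3 knockout effects (x axis, log2) and the double knockout effect (y axis, log2), both against WT, with the line of additivity. The 1766 genes above the line and the 1116 below it lie mostly near a double knockout effect of 0; values of genes with a group at or near 0 counts depend on the prior count.

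Fgf5, a growth factor of the postimplantation epiblast, moved beyond the sum on the log2 scale. It is located at chr5:98254184-98277030, plus strand. Its level was 2.66 and 2.68 CPM in the double knockout, 47.7 and 31.8 CPM in the Smad2 knockout, 76.1 and 77.1 CPM in the Smad3 knockout and 178 and 158 CPM in WT. The groups did not overlap, with both double knockout libraries lowest and both WT libraries highest. Added single effects (-2.08 and -1.13) would have left 18.2 CPM in the double knockout, and the interaction was -2.76 (SE 0.31; adjusted p = 0.00709). After removal of the length trend it was -2.73 (adjusted p = 0.0127). The scale matters here: as a difference of CPM, the same contrast was 54.2 CPM and of the opposite sign, because the CPM lost in the 2 single knockouts sums to more than the WT level. Over the called genes 2856 of 2882 kept their sign on the linear scale, and 21 of the 26 that did not belong to the class beyond the sum.

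The primed epiblast list, genes of the epiblast that has left naive pluripotency, had 20% of 15 tested members called, against 15.1% of all genes. Lower than additive were 2 (Fgf5 and Sall2) and higher 1 (Dnmt3a). Sall2, a zinc finger factor, had 15.2 and 15.1 CPM in the double knockout, 50.7 and 50.6 CPM in the Smad2 knockout, 95.8 and 98.2 CPM in the Smad3 knockout and 129 and 159 CPM in WT. The interaction was -1.17 (SE 0.24; adjusted p = 0.0208) and became -1.98 with the length offset; on the linear scale it was positive (11.6 CPM). Dnmt3a, a de novo DNA methyltransferase, fell short of the sum, with 97.6 and 78.7 CPM in the double knockout, 69.5 and 78.6 CPM in the Smad2 knockout, 114 and 119 CPM in the Smad3 knockout and 170.3 and 218 CPM in WT. Its interaction of 0.99 (SE 0.27; adjusted p = 0.0467) lost its call with the length offset (0.12; adjusted p = 0.82). Otx2, a homeodomain factor of this stage, was close to additive at 0.32 (SE 0.28; adjusted p = 0.446).

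Of the 10 genes in the core pluripotency list 10% were called, against 15.1% of all genes. The 1 called was Pou5f1, the POU factor at the core of pluripotency. It had 172 and 143 CPM in the double knockout, 826 and 896 CPM in the Smad2 knockout, 425 and 531 CPM in the Smad3 knockout and 442 and 895 CPM in WT. Both double knockout libraries were below all 6 others, and the WT libraries lay far apart and overlapped both single knockouts. Its interaction was -1.97 (SE 0.44; adjusted p = 0.0271), and with the length offset -1.41 (adjusted p = 0.0697), no longer called. Nanog, at 0.66 (SE 0.25; adjusted p = 0.102), and Sox2, at 0.15 (SE 0.32; adjusted p = 0.762), did not pass. In the naive pluripotency list 1 of 20 members (5%) was called higher (Spic) and none lower, against 15.1% of all genes called. Spic lost its call with the length offset (adjusted p = 0.0553). The list's median interaction was 0.31, with medians of 0.81 in the double, 1.22 in the Smad2 and -0.71 in the Smad3 knockout, all against WT.

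**Figure D3:**
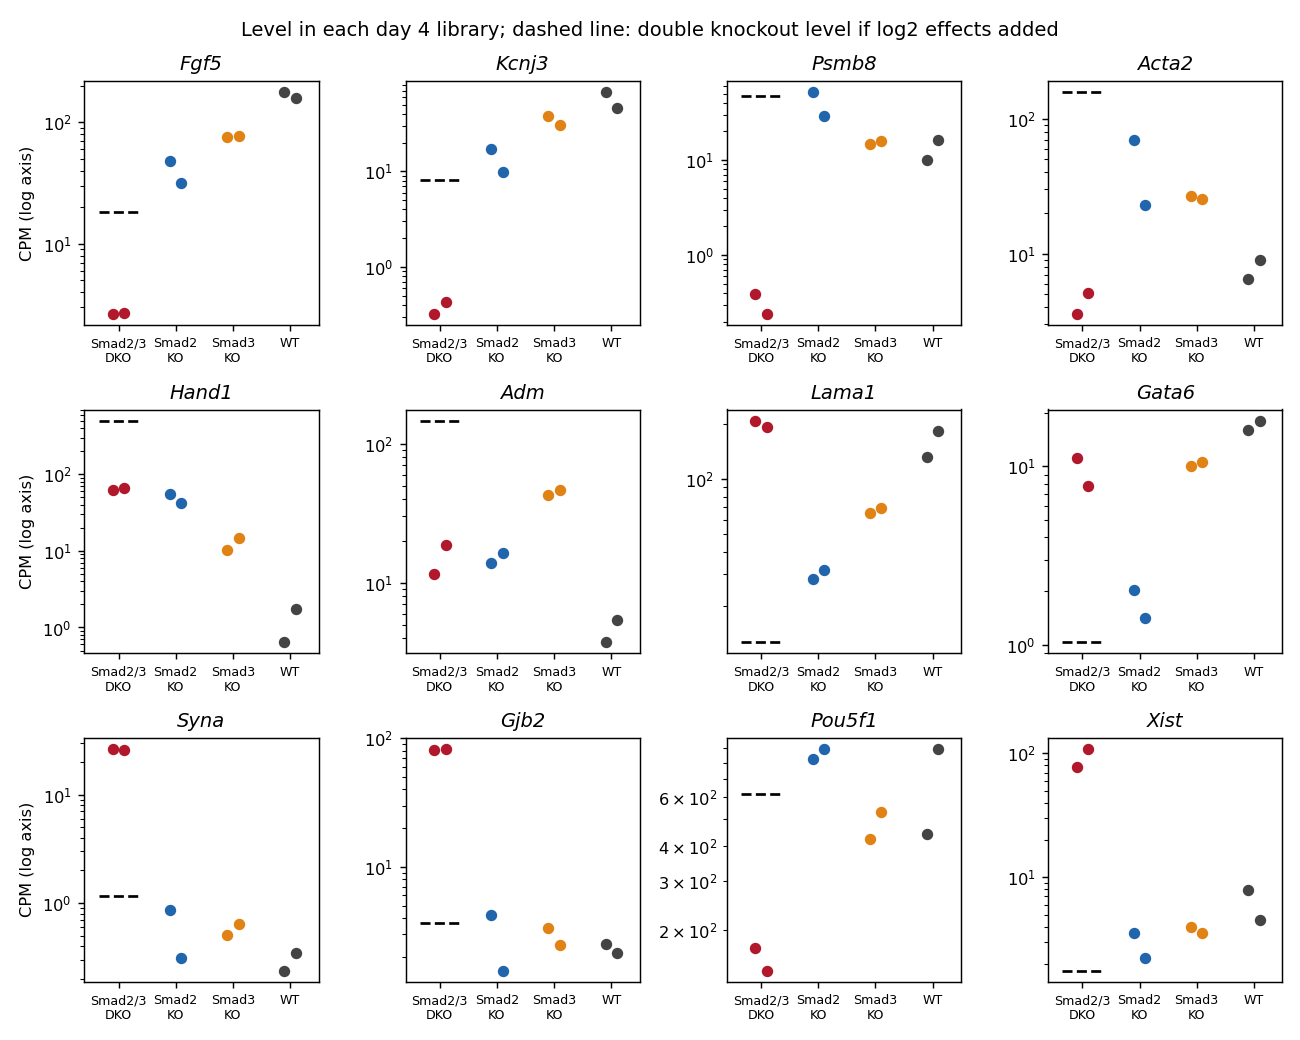
CPM (log axis) of 12 genes in each of the 2 libraries of the double knockout, Smad2 knockout, Smad3 knockout and WT; the dashed line is the double knockout level if log2 effects added. Fgf5, Kcnj3, Psmb8, Acta2, Hand1, Adm and Pou5f1 lie below the line in both double knockout libraries, and Lama1, Gata6, Syna, Gjb2 and Xist above it.

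By their medians, genes that respond to Nodal and Activin were below WT in every knockout. The list's median log2 difference from WT was -4.69 for the double, -1.79 for the Smad2 and -0.92 for the Smad3 knockout. Its median interaction was -0.97, and 2 of 18 members (11.1%) were called, both lower, among them Fgf5, a share near the 15.1% of all genes. With the length offset 1 was called, also lower. Nodal, the ligand that drives its own expression, had 12.4 and 8.99 CPM in the double knockout, 52.9 and 26.4 CPM in the Smad2 knockout, 29 and 35 CPM in the Smad3 knockout and 43.9 and 88.9 CPM in WT, with an interaction of -0.84 (SE 0.58; adjusted p = 0.331). The feedback inhibitor Lefty1 had 0.844 and 0.218 CPM in the double knockout, 21.9 and 21.1 CPM in the Smad2 knockout, 8.28 and 13.5 CPM in the Smad3 knockout and 38.6 and 107 CPM in WT. All Lefty1 values in the double knockout were under 1 CPM, yet the interaction, -2.57 (SE 0.84; adjusted p = 0.0729), did not pass; that of Lefty2 was -2.62 (SE 1.07; adjusted p = 0.125). On log2(TPM + 1), where the median of all genes was 0.63, the interaction of Nodal was near 0 (0.0022). As a difference of mean CPM the same contrast was positive for Nodal (5.33), Lefty1 (40.9) and Lefty2 (40.4).

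In the primitive streak list the 2 Smad2 knockout libraries went apart. T, the T-box factor of the streak, had 0.26 and 0.338 CPM in the double knockout, 77.8 and 0.826 CPM in the Smad2 knockout, 59.2 and 67.2 CPM in the Smad3 knockout and 94 and 111 CPM in WT. Smad2 knockout replicate 1 lay near WT and replicate 2 near the double knockout, so the interaction of -6.33 (SE 2.10; adjusted p = 0.0757) ranged from -7.50 to -0.27 over the 16 choices of 1 library per group. Mixl1, a homeobox gene of the streak, behaved likewise, with 0.108 and 0.0483 CPM in the double knockout, 23.7 and 0.0893 CPM in the Smad2 knockout, 29.3 and 30.7 CPM in the Smad3 knockout and 53.5 and 49.1 CPM in WT and an interaction of -6.39 (SE 2.43; adjusted p = 0.106). Without Smad2 knockout replicate 1 the sign of Mixl1 turned (0.55), as did that of Eomes (0.30) and Lhx1 (1.33), none of which were called. The list's median interaction was -2.96, with medians of -3.80 in the double, -0.03 in the Smad2 and -0.29 in the Smad3 knockout.

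Of the 18 streak genes, 4 were called lower than additive and none higher (22.2%, against 15.1% of all genes called). The 4 were Mesp1, Mesp2, Msgn1 and Fgf17. Mesp2, a bHLH factor, had 1.23 and 1.06 CPM in the double knockout, 2.35 and 2.72 CPM in the Smad2 knockout, 4.14 and 5.68 CPM in the Smad3 knockout and 1.52 and 2.7 CPM in WT. Its interaction of -2.36 (SE 0.52; adjusted p = 0.0252) is the 1 of the 4 still called with the length offset. Mesp1, its paralogue in the mesoderm, had 0.0216 and 0 CPM in the double knockout, 6.59 and 0.0893 CPM in the Smad2 knockout, 4.9 and 9.71 CPM in the Smad3 knockout and 1.26 and 3 CPM in WT. The double knockout value rests on 1 count in both libraries together, against 174 counts in WT, a WT level 171 times as high with an exact counting interval of 30.4 to 6810. Msgn1 had 2 counts over both double knockout libraries and 5 over both WT libraries, so its interaction rests on the single knockouts. The list's count of genes called lower was 1 without Smad2 knockout replicate 1 and 13 without replicate 2. The WNT response list, which shares T, Cdx1, Axin2 and other members with it, had 0 of 19 called by edgeR after its filter and a median interaction of -1.32. By edgeR without a filter 8 WNT members were called lower, and with DESeq2 5. DESeq2 called 9 streak genes lower, and 4195 of all 19098 genes in either direction.

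Most called endoderm genes went the other way. Of 24 members of the extraembryonic endoderm list, 13 were called higher than additive and none lower (54.2% called). Of 16 of the definitive endoderm list, 7 were higher and 1 lower (50%), against 15.1% of all genes called. With DESeq2 these numbers were 8 and 4, and those of the extraembryonic list 13 and 0. Over all 19098 genes DESeq2 called 2229 higher and 1966 lower. Gata4, Gata6 and Sox17 are in both lists. The median extraembryonic endoderm member stood at -1.15 in the double, -2.57 in the Smad2 and -0.23 in the Smad3 knockout, with a median interaction of 1.77. Summed over the list, the level was 2611 and 2029 CPM in the double knockout, 1476 and 1795 in the Smad2 knockout, 2394 and 2768 in the Smad3 knockout and 2669 and 3476 in WT. These lists include markers of visceral and parietal endoderm, the layers that surround the epiblast in the embryo. In the fit with the length offset 6 extraembryonic members were called higher and 1 lower, and 4 definitive endoderm members were higher. Over all 19098 genes that fit called 488 higher and 325 lower. Without Smad2 knockout replicate 1 or 2 the extraembryonic count was 6 or 8, and without any 1 double or Smad3 knockout library it was 1.

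Lama1, the laminin alpha 1 chain of basement membranes, is located at chr17:67697259-67822647, plus strand and had 209 and 194 CPM in the double knockout, 28.3 and 31.6 CPM in the Smad2 knockout, 65 and 69.1 CPM in the Smad3 knockout and 132 and 183 CPM in WT. Both single knockouts were below WT in all libraries, whereas both double knockout libraries were above WT. Additive effects predict 12.7 CPM. The interaction was 3.99 (SE 0.28; adjusted p = 0.00379), and with the length offset 2.62, still called (adjusted p = 0.0145). Gata6, a GATA factor that specifies primitive endoderm, is located at chr18:11052064-11085635, plus strand and had 11.2 and 7.76 CPM in the double knockout, 2.02 and 1.41 CPM in the Smad2 knockout, 9.99 and 10.5 CPM in the Smad3 knockout and 16 and 18.1 CPM in WT. Its level without Smad2 alone was below all others, and the double knockout lay near the Smad3 knockout (difference -0.11). The interaction of Gata6 was 3.20 (SE 0.40; adjusted p = 0.00823).

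Cubn, the cubilin receptor with which visceral endoderm takes up proteins, had 61.7 and 33 CPM in the double knockout, 5.37 and 11.6 CPM in the Smad2 knockout, 104 and 103 CPM in the Smad3 knockout and 348 and 278 CPM in WT. The loss of Cubn in the double knockout (-2.72 against WT) was smaller than in the Smad2 knockout (-5.20). Its interaction was 4.06 (SE 0.56; adjusted p = 0.0106), and 2.58 with the length offset. Sox7, a SOX factor of parietal endoderm, had 4.8 and 5.9 CPM in the double knockout, 1.16 and 0.29 CPM in the Smad2 knockout, 4.6 and 4.44 CPM in the Smad3 knockout and 8.05 and 7.73 CPM in WT, with an interaction of 3.70 (SE 0.72; adjusted p = 0.0188). Hnf4a and Sox17 had interactions of 2.41 (SE 0.49; adjusted p = 0.0212) and 2.46 (SE 0.69; adjusted p = 0.048), both no longer called with the length offset (adjusted p = 0.0714 and 0.057).

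Endoderm exceptions were few in the edgeR fit, and DESeq2 called more members of the definitive endoderm list lower, as given above. Foxa3, a forkhead factor of gut and liver, was lower than additive at -1.72 (SE 0.45; adjusted p = 0.0408), with 0.736 and 0.653 CPM in the double knockout, 2.85 and 2.23 CPM in the Smad2 knockout, 1.92 and 1.7 CPM in the Smad3 knockout and 1.83 and 2.18 CPM in WT; the call was lost with the length offset (adjusted p = 0.0931). Foxa2, its relative in the anterior streak and endoderm, had 2.86 and 1.04 CPM in the double knockout, 2.3 and 0.491 CPM in the Smad2 knockout, 4.9 and 6.52 CPM in the Smad3 knockout and 28.2 and 42.1 CPM in WT. Its interaction of 3.13 (SE 0.95; adjusted p = 0.0594) did not pass. Cer1, a secreted Nodal and BMP antagonist, was at 2 counts over both libraries of the double knockout and likewise 2 in the Smad2 knockout, against 2015 in WT. A gene this low in both backgrounds cannot show a further fall, and its interaction was 2.91 (SE 1.23; adjusted p = 0.167). Gsc and Lhx1, also of the organizer list, had -1.38 (SE 1.17; adjusted p = 0.431) and -1.80 (SE 1.25; adjusted p = 0.334). Of 14 tested members of that list none was called by edgeR, against 15.1% of all genes, and its median was -0.03. With DESeq2 1 member was called higher and 1 lower.

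Hand1 and Igf2 were above WT in every knockout library and fell short of the sum. Hand1, a bHLH factor of lateral mesoderm and trophoblast, had 63.2 and 65.3 CPM in the double knockout, 56 and 41.6 CPM in the Smad2 knockout, 10.1 and 14.6 CPM in the Smad3 knockout and 0.643 and 1.76 CPM in WT. The double knockout was only slightly above the Smad2 knockout, and additive effects predict 502 CPM. Its interaction was -2.97 (SE 0.56; adjusted p = 0.0177) on the log2 scale and 4.30 CPM on the linear scale, where the sign turned. Igf2, the imprinted growth factor of placenta and yolk sac, had 1095 and 1281 CPM in the double knockout, 855 and 563 CPM in the Smad2 knockout, 206 and 206 CPM in the Smad3 knockout and 45.9 and 44.1 CPM in WT, against an additive expectation of 3252 CPM. The interaction of Igf2 was -1.45 (SE 0.31; adjusted p = 0.0237), again of the opposite sign on the linear scale (318 CPM). Both genes were still called with the length offset (adjusted p = 0.0284 and 0.0395).

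Msx2, a homeobox target of BMP signalling, had 10.9 and 11 CPM in the double knockout, 28.2 and 10.8 CPM in the Smad2 knockout, 5.57 and 6.09 CPM in the Smad3 knockout and 2.22 and 2.53 CPM in WT, and its interaction was -2.13 (SE 0.58; adjusted p = 0.0446). Bmp4, the ligand, had an interaction of -1.42 (SE 0.40; adjusted p = 0.0499), which turned to 0.16 on log2(TPM + 1), where the median of all genes was 0.63. Both calls were lost with the length offset (adjusted p = 0.075 and 0.192). They were the 2 called members of 18 in the BMP response list (11.1%), and both also stand in the lateral mesoderm list. Of the 19 members of that list 26.3% were called, against 15.1% of all genes. In it 4 were lower than additive (Hand1, Twist1, Msx2 and Bmp4) and 1 was higher (Cdh5). With the length offset 2 were lower and none higher, and Twist1 was no longer called (adjusted p = 0.114).

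Trophoblast genes were high in the double and Smad2 knockouts without a common departure from the sum. The list's medians were 5.35 in the double, 3.91 in the Smad2 and 1.29 in the Smad3 knockout, with a median interaction of 0.26. Called were 16.7% of its 18 members, 2 higher than additive and 1 lower, against 15.1% of all genes. With the length offset none was higher and 1 lower. Gata3, a GATA factor of trophoblast, had 35.5 and 27.2 CPM in the double knockout, 10.2 and 4.6 CPM in the Smad2 knockout, 3.63 and 3.9 CPM in the Smad3 knockout and 0.643 and 0.842 CPM in WT, which is close to its additive expectation of 37.5 CPM. The interaction of Gata3 was -0.25 (SE 0.54; adjusted p = 0.769). It turned to 1.46 on log2(TPM + 1), where the median of all genes was 0.63, and to 0.36 without Smad2 knockout replicate 1. Cdx2, a caudal factor of trophoblast and posterior mesoderm, had 1.99 and 1.74 CPM in the double knockout, 32.9 and 4.64 CPM in the Smad2 knockout, 1.73 and 1.82 CPM in the Smad3 knockout and 1.02 and 1.68 CPM in WT; the Smad2 knockout libraries differed widely, and the interaction of -3.72 (SE 1.08; adjusted p = 0.0537) did not pass. Tfap2c, an AP-2 factor of trophoblast, germ cells and surface ectoderm, was higher than additive, with 179 and 176 CPM in the double knockout, 64.1 and 88.3 CPM in the Smad2 knockout, 25.4 and 27.4 CPM in the Smad3 knockout and 24.8 and 28.7 CPM in WT and an interaction of 1.24 (SE 0.28; adjusted p = 0.0272). The call of Tfap2c was lost with the length offset (adjusted p = 0.0621).

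Several genes stayed low in both single knockouts and were high in the double knockout. Gjb2, the gap junction protein connexin 26, had 81.8 and 82.5 CPM in the double knockout, 4.27 and 1.56 CPM in the Smad2 knockout, 3.38 and 2.49 CPM in the Smad3 knockout and 2.52 and 2.13 CPM in WT. The double knockout libraries were far above all 6 others, which overlapped among themselves. The interaction was 4.49 (SE 0.60; adjusted p = 0.00979), and single effects were 0.31 and 0.33. Syna, which encodes syncytin-A, a fusion protein of the mouse placenta, had 26.3 and 25.9 CPM in the double knockout, 0.859 and 0.312 CPM in the Smad2 knockout, 0.509 and 0.642 CPM in the Smad3 knockout and 0.238 and 0.347 CPM in WT, and its interaction was 4.53 (SE 0.67; adjusted p = 0.0115). Pappa2, a protease that cleaves IGF-binding proteins, had 13.2 and 13.2 CPM in the double knockout, 0.0831 and 0 CPM in the Smad2 knockout, 0.509 and 0.514 CPM in the Smad3 knockout and 0.191 and 0.198 CPM in WT. Its Smad2 knockout value rests on 3 counts, against 16 in WT, so the fitted interaction of 6.96 (SE 0.91; adjusted p = 0.009) depends on the prior count, whereas both double knockout libraries were above 13 CPM. Entpd1, the ectonucleotidase CD39, had 8.64 and 6.24 CPM in the double knockout, 0.72 and 0.156 CPM in the Smad2 knockout, 0.462 and 0.36 CPM in the Smad3 knockout and 0.31 and 0.347 CPM in WT, with an interaction of 3.78 (SE 0.87; adjusted p = 0.0287). These 4 calls held with the length offset.

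Cdh5 and Pcdh12 were also high in the double knockout. Cdh5, the VE-cadherin of endothelium, is the 1 member of the lateral mesoderm and hematoendothelial list called higher than additive, and that list's median interaction was -1.19. It had 44.6 and 35.8 CPM in the double knockout, 2.08 and 0.134 CPM in the Smad2 knockout, 0.37 and 0.154 CPM in the Smad3 knockout and 0.262 and 0.396 CPM in WT. Its interaction of 5.52 (SE 1.41; adjusted p = 0.0377) lost its call with the length offset (adjusted p = 0.0929). Pcdh12, a protocadherin of endothelium and of glycogen cells of the mouse placenta, had 14.1 and 8.53 CPM in the double knockout, 0.388 and 0.0893 CPM in the Smad2 knockout, 0.277 and 0.36 CPM in the Smad3 knockout and 0.143 and 0.173 CPM in WT and an interaction of 4.60 (SE 0.91; adjusted p = 0.0195), still called with the offset (adjusted p = 0.0422); it stands in no list.

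In the opposite direction, Penk and Kcnj3 were low in the double knockout. Penk, the enkephalin precursor, had 0.519 and 0.314 CPM in the double knockout, 7.73 and 5.98 CPM in the Smad2 knockout, 6.61 and 7.68 CPM in the Smad3 knockout and 6.17 and 7.55 CPM in WT. The 6 libraries of the single knockouts and WT overlapped, both double knockout libraries lay below them, and the interaction was -4.08 (SE 0.46; adjusted p = 0.00709). Kcnj3, a subunit of a G protein-gated potassium channel, had 0.325 and 0.435 CPM in the double knockout, 17.3 and 9.86 CPM in the Smad2 knockout, 37.7 and 30.6 CPM in the Smad3 knockout and 67.5 and 46.1 CPM in WT. Its interaction was -4.42 (SE 0.50; adjusted p = 0.00717) on the log2 scale, with the opposite sign on the linear scale (9.44 CPM). Sox3, a SOXB1 factor of neural progenitors and the X-linked relative of Sox2, had 0.563 and 0.338 CPM in the double knockout, 7.04 and 5.71 CPM in the Smad2 knockout, 4.6 and 7.24 CPM in the Smad3 knockout and 5.93 and 15.9 CPM in WT and an interaction of -2.92 (SE 0.72; adjusted p = 0.034), lost with the length offset (adjusted p = 0.0537). In the neuroectoderm list Sox3 and Fabp7 were the 2 called members of 18 (11.1%, against 15.1% of all genes). Fabp7 had no count in the double knockout. Taking 3 counts over the 2 libraries as the floor, WT was at least 22 times as high. Fabp7 also lost its call with the length offset (adjusted p = 0.115).

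Genes of MHC class I antigen processing were lower than additive by their median, with a median interaction of -1.53. Of 13 members 6 were called lower and none higher, 46.2% against 15.1% of all genes called. MHC class I molecules present peptides cut by the proteasome and carried into the endoplasmic reticulum by the TAP transporter. The median member stood at -1.22 in the double, 0.47 in the Smad2 and 0.32 in the Smad3 knockout. Summed over the list, the level was 205 and 199 CPM in the double knockout, 647 and 426 in the Smad2 knockout, 386 and 454 in the Smad3 knockout and 367 and 495 in WT. The fit with the length offset called 6 members as well, and the count was 1 without any 1 double or Smad3 knockout library.

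Psmb8, a catalytic subunit of the immunoproteasome, is located at chr17:34197721-34201454, plus strand. It had 0.39 and 0.242 CPM in the double knockout, 51.9 and 29.1 CPM in the Smad2 knockout, 14.8 and 16 CPM in the Smad3 knockout and 10.1 and 16.2 CPM in WT. The Smad2 knockout libraries were highest and the double knockout libraries lowest, and the interaction was -7.21 (SE 0.57; adjusted p = 0.00379). The other immunoproteasome subunits were lower than additive too. Psmb10 had 2.92 and 3.07 CPM in the double knockout, 62.6 and 47.2 CPM in the Smad2 knockout, 21.1 and 30 CPM in the Smad3 knockout and 12.3 and 40.3 CPM in WT, with an interaction of -4.15 (SE 0.70; adjusted p = 0.0139). Psmb9 had 1.51 and 1.26 CPM in the double knockout, 10 and 4.64 CPM in the Smad2 knockout, 4.37 and 4.39 CPM in the Smad3 knockout and 2.52 and 4.23 CPM in WT, with an interaction of -2.77 (SE 0.60; adjusted p = 0.0244) that lost its call with the length offset (adjusted p = 0.0696). Tap2, a subunit of the peptide transporter, had 1.95 and 1.35 CPM in the double knockout, 18.9 and 13 CPM in the Smad2 knockout, 12.3 and 18.6 CPM in the Smad3 knockout and 6.15 and 17.9 CPM in WT. Both double knockout libraries lay below the other 6 for Tap2, and its interaction was -3.63 (SE 0.71; adjusted p = 0.0192). Psmb8, Psmb9 and Tap2 are neighbours on chromosome 17, and some overlap other annotated genes, whose reads cannot be separated here.

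Stromal and contractile genes were also lower than additive. In the fibroblast and stroma list 6 of 12 members were called lower and none higher, 50% against 15.1% of all genes called. Its median interaction was -2.59, with medians of -0.22 in the double, 2.61 in the Smad2 and 0.64 in the Smad3 knockout. The summed level was 685 and 599 CPM in the double knockout, 706 and 719 in the Smad2 knockout, 803 and 879 in the Smad3 knockout and 583 and 753 in WT. WT overlapped the double and Smad2 knockouts, and both Smad3 knockout libraries were highest. After removal of the length trend 4 of the 12 were called lower. Acta2, smooth muscle actin (chr19:34241090-34255590, minus strand), had 3.59 and 5.12 CPM in the double knockout, 69.6 and 23 CPM in the Smad2 knockout, 26.7 and 25.5 CPM in the Smad3 knockout and 6.45 and 8.91 CPM in WT. All single knockout libraries were above WT, both double knockout libraries were below it, and additive effects predict 157 CPM. The interaction was -5.17 (SE 0.69; adjusted p = 0.00982). Tagln, an actin-binding protein of smooth muscle, had 13.1 and 19.5 CPM in the double knockout, 155 and 52.3 CPM in the Smad2 knockout, 75 and 78.9 CPM in the Smad3 knockout and 29.4 and 40.1 CPM in WT and an interaction of -3.82 (SE 0.66; adjusted p = 0.0142). The collagen chain gene Col1a2 had 4.33 and 5.58 CPM in the double knockout, 24.7 and 23.1 CPM in the Smad2 knockout, 5.16 and 5.91 CPM in the Smad3 knockout and 2.72 and 3.52 CPM in WT, with an interaction of -3.10 (SE 0.36; adjusted p = 0.00718).

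The skeletal and cardiac actin genes were lower than additive too, with other levels against WT. The double knockout minus WT was -0.82 for Acta2, 0.76 for Acta1 and -4.99 for Actc1, and the Smad2 knockout minus WT was 2.59, 2.41 and -1.50 for the same genes. Acta1 had 7.01 and 10.2 CPM in the double knockout, 42 and 12.4 CPM in the Smad2 knockout, 29.6 and 39.8 CPM in the Smad3 knockout and 2.48 and 7.73 CPM in WT, with an interaction of -4.42 (SE 0.92; adjusted p = 0.0222). Actc1 had 0.0433 and 0.169 CPM in the double knockout, 1.99 and 0.424 CPM in the Smad2 knockout, 6.98 and 8.19 CPM in the Smad3 knockout and 3.22 and 3.57 CPM in WT, and its interaction of -4.65 (SE 1.04; adjusted p = 0.0265) lost its call with the length offset (adjusted p = 0.062). Because all 3 were called lower than additive, the 250 bases before each start are shown, from RefSeq on GRCm38.p6, with matches in capitals. Searched were the CArG box, which serum response factor binds, and the SMAD-binding letters CAGAC, both read on either strand; no 2 matches overlap. The regions are chr19:34255374-34255623, minus strand, for Acta2, chr8:123894776-123895025, minus strand, for Acta1, and chr2:114052876-114053125, minus strand, for Actc1.
Acta2: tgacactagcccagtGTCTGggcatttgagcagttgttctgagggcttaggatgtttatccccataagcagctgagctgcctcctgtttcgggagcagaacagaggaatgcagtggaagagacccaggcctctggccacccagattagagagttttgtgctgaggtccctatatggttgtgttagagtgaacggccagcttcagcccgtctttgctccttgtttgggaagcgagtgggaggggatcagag
Acta1: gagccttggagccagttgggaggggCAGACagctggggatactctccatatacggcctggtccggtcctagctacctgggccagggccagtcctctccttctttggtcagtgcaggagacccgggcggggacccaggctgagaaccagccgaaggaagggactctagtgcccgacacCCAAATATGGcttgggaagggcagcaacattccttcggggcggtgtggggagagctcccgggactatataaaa
Actc1: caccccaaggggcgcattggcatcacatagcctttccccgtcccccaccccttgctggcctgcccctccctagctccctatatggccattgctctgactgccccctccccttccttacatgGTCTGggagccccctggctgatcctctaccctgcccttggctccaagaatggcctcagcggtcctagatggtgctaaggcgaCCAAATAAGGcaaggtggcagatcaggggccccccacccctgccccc
Acta1 holds 1 CArG box 73 bases before the start and Actc1 1 at 47 bases, and this window of Acta2 holds no strict match. Only the form CCWWWWWWGG, with W for A or T, was searched, so near matches in any of the windows are not marked. A CArG box was found in 1.47% of 32851 such promoters and CAGAC in 42.2%. Each of the 3 holds 1 CAGAC match.

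Interactions were unevenly spread over chromosomes. On the X chromosome 128 of 722 genes (17.7%) and on chromosome 18 104 of 440 (23.6%) were called higher than additive, against 5.96 to 12.2% on each of the 18 other chromosomes. In the fit with the length offset the shares were 8.59% on the X chromosome and 7.95% on chromosome 18, against 1.58 to 3.10%. Neighbouring genes are not independent, and no test of these shares was made.

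**Figure D4:**
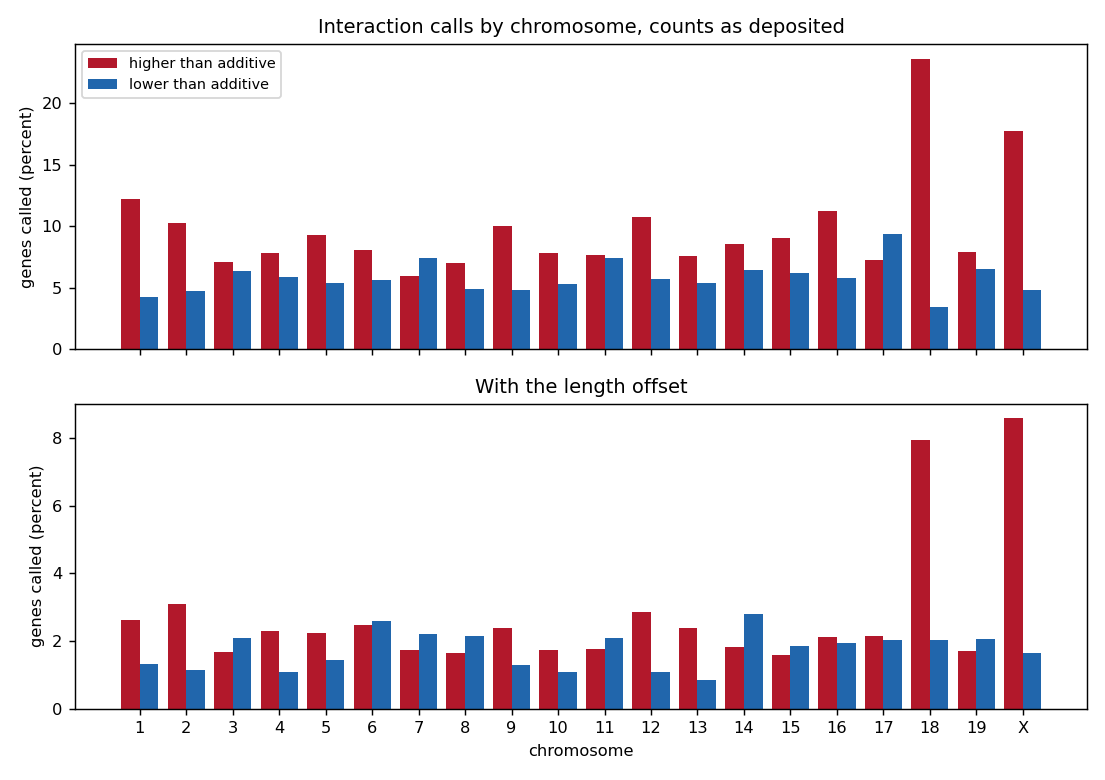
Percent of tested genes on each chromosome called higher or lower than additive, with counts as deposited (upper) and with the length offset (lower; the y axes differ). Chromosomes 18 and X stand above the others for genes higher than additive in both panels.

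Xist, the noncoding RNA that coats an inactive X chromosome, had 77.4 and 108 CPM in the double knockout, 3.55 and 2.21 CPM in the Smad2 knockout, 4 and 3.57 CPM in the Smad3 knockout and 7.84 and 4.53 CPM in WT. Both double knockout libraries were above the other 6, and the interaction was 5.73 (SE 0.50; adjusted p = 0.00431). Xist lies opposite Tsix, and since strand-specific counting is not stated, the 2 cannot be told apart. Y-linked genes changed as well: the list summed to 2.73 and 0 CPM in the double knockout, 0 and 0.179 in the Smad2 knockout, 57.3 and 47.1 in the Smad3 knockout and 154 and 92.9 in WT, so the double and Smad2 knockout lines were near 0 for it. Of its 4 tested members none was called for the interaction. The part of this difference in the X-linked values was not tested.

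Other X-linked genes high in the double knockout were Efhc2, Arhgef6, Zxdb and the Xlr5 genes. Efhc2, an EF-hand protein, had 41.5 and 27.8 CPM in the double knockout, 2.3 and 1.65 CPM in the Smad2 knockout, 4.39 and 4.32 CPM in the Smad3 knockout and 10.7 and 6.54 CPM in WT, with an interaction of 5.12 (SE 0.48; adjusted p = 0.00516). Arhgef6, an exchange factor for small GTPases, had 79.5 and 103 CPM in the double knockout, 3.21 and 1.45 CPM in the Smad2 knockout, 9.48 and 7.65 CPM in the Smad3 knockout and 4.64 and 3.32 CPM in WT and an interaction of 4.19 (SE 0.53; adjusted p = 0.00823). Zxdb, a zinc finger gene, had 52.7 and 62.1 CPM in the double knockout, 5.93 and 2.16 CPM in the Smad2 knockout, 3.51 and 3.11 CPM in the Smad3 knockout and 4.36 and 2.43 CPM in WT; its interaction of 3.87 (SE 0.66; adjusted p = 0.0139) lost its call with the length offset (adjusted p = 0.053). Xlr5b had 20.4 and 20.9 CPM in the double knockout, 0.166 and 0.112 CPM in the Smad2 knockout, 2.57 and 2.54 CPM in the Smad3 knockout and 0.5 and 0.52 CPM in WT, with an interaction of 4.89 (SE 0.42; adjusted p = 0.00431). Xlr5 genes are near-identical copies in overlapping annotation, so their values are uncertain.

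Chromosome 18 divided at Smad2. Up to and including Smad2, 261 genes reached 5 CPM in some group, and 200 of them were higher in the double knockout than in WT, with a median difference of 0.35 and a median interaction of 0.75. Beyond Smad2, 33 of 35 genes were lower in the double knockout than in WT, with a median difference of -1.13 and a median interaction of -0.53. Medians of the Smad2 knockout against WT were -0.23 and -0.31 in these 2 stretches, and those of the Smad3 knockout -0.16 and -0.25. The sources used here do not give the copy number of chromosome 18 in these lines. Gata6, Smad4, Zeb1, Stard4 and Pcdh12 lie on chromosome 18, and the part of the chromosome in their values was not tested.

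Imprinted genes, expressed from 1 parental allele and many of them regulators of placental growth, held 10 called members of 24, 7 higher and 3 lower. This was 41.7%, against 15.1% of all genes called. Peg10, a retrotransposon-derived placental gene, had 6877 and 11585 CPM in the double knockout, 1974 and 1522 CPM in the Smad2 knockout, 636 and 569 CPM in the Smad3 knockout and 682 and 522 CPM in WT, with an interaction of 2.40 (SE 0.40; adjusted p = 0.0133). Peg3, a zinc finger gene, had 637 and 957 CPM in the double knockout, 151 and 74.5 CPM in the Smad2 knockout, 288 and 271 CPM in the Smad3 knockout and 266 and 215 CPM in WT; the Smad2 knockout was below WT and the double knockout above it, and the interaction was 2.60 (SE 0.48; adjusted p = 0.0167). Both calls were lost with the length offset (adjusted p = 0.114 and 0.178). Plagl1, a zinc finger factor that regulates other imprinted genes, had 31.5 and 34.9 CPM in the double knockout, 5.35 and 2.41 CPM in the Smad2 knockout, 0.717 and 0.36 CPM in the Smad3 knockout and 1.24 and 1.41 CPM in WT and an interaction of 4.39 (SE 0.62; adjusted p = 0.011). Slc22a18, a transporter of the Kcnq1 domain, had 8.29 and 7.54 CPM in the double knockout, 1.77 and 1.72 CPM in the Smad2 knockout, 1.39 and 1.72 CPM in the Smad3 knockout and 1.17 and 1.78 CPM in WT, with an interaction of 2.10 (SE 0.44; adjusted p = 0.0229). Snrpn, a splicing protein gene, was lower than additive, with 109 and 116 CPM in the double knockout, 275 and 245 CPM in the Smad2 knockout, 352 and 345 CPM in the Smad3 knockout and 334 and 359 CPM in WT and an interaction of -1.21 (SE 0.22; adjusted p = 0.0163). Removal of the length trend left 3 members called in each direction.

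Components of the pathway itself were called at the share of all genes. Of 20 members of the SMAD family and pathway list, 2 were higher than additive (Smad4 and Tgfbr1) and 1 lower (Drap1), 15% against 15.1%. Smad4, the common partner SMAD, had 161 and 146 CPM in the double knockout, 75.5 and 59.3 CPM in the Smad2 knockout, 120.4 and 116 CPM in the Smad3 knockout and 124 and 112 CPM in WT. Its interaction was 1.18 (SE 0.25; adjusted p = 0.0233). Tgfbr1, the type I TGF-beta receptor, had 61.9 and 55 CPM in the double knockout, 28.9 and 22.9 CPM in the Smad2 knockout, 51.1 and 39.7 CPM in the Smad3 knockout and 73.8 and 45 CPM in WT, with an interaction of 1.56 (SE 0.38; adjusted p = 0.0334). Drap1, a corepressor that restrains Nodal responses in the mouse embryo, had 61.1 and 64.8 CPM in the double knockout, 186 and 123 CPM in the Smad2 knockout, 52.8 and 57.1 CPM in the Smad3 knockout and 30 and 56.6 CPM in WT, with an interaction of -1.64 (SE 0.44; adjusted p = 0.0435). None of the 3 was called with the length offset (adjusted p = 0.129, 0.351 and 0.346).

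Loss of Smad2 had opposite effects with and without Smad3 for 191 called genes. This count takes genes called both in the Smad2 knockout against WT and in the double against the Smad3 knockout, with different signs. Of all genes tested, these contrasts called 32.3% and 13.3%. The interaction then has the sign of the double against the Smad3 knockout by construction, positive for 139 genes and negative for 52. The Smad2 knockout against WT carries the length trend, and the 191 were not counted with the length offset. Lama1, described above, differed by 1.59 in the double against the Smad3 knockout and by -2.40 in the Smad2 knockout against WT. Adm, the vasodilator peptide adrenomedullin and a hypoxia response gene, had 11.6 and 18.6 CPM in the double knockout, 13.8 and 16.2 CPM in the Smad2 knockout, 42.5 and 46.5 CPM in the Smad3 knockout and 3.74 and 5.4 CPM in WT. It was highest in the Smad3 knockout, and the interaction was -3.28 (SE 0.41; adjusted p = 0.00818). Krt17, a basal keratin, had 1.19 and 0.532 CPM in the double knockout, 3.35 and 4.02 CPM in the Smad2 knockout, 3.61 and 4.29 CPM in the Smad3 knockout and 0.5 and 1.31 CPM in WT, with an interaction of -4.21 (SE 0.75; adjusted p = 0.0149). Eda2r, a p53 target and X-linked receptor, had 177 and 154 CPM in the double knockout, 30.1 and 39.3 CPM in the Smad2 knockout, 81.3 and 66.2 CPM in the Smad3 knockout and 80.5 and 46.7 CPM in WT; its interaction was 2.04 (SE 0.39; adjusted p = 0.0187), lost with the length offset (adjusted p = 0.0668).

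The genes with the largest contrasts include some that follow 1 set of libraries. Adnp, a chromatin-associated homeobox protein gene, had 28.2 and 27.3 CPM in the double knockout, 0.305 and 1.23 CPM in the Smad2 knockout, 22.7 and 26.4 CPM in the Smad3 knockout and 44.9 and 37.5 CPM in WT, and Zbed6, a transposon-derived repressor gene, had 52.5 and 47.8 CPM in the double knockout, 1.33 and 1.72 CPM in the Smad2 knockout, 41.6 and 42.8 CPM in the Smad3 knockout and 49.5 and 30.2 CPM in WT. For both, the Smad2 knockout libraries lay far below the other 6; their interactions were 5.88 (SE 0.64; adjusted p = 0.00709) and 4.95 (SE 0.39; adjusted p = 0.00379), and both overlap other annotated genes. Rn7s2, a copy of the 7SL RNA of the signal recognition particle, had 1.93 and 1.6 CPM in the double knockout, 30.2 and 88.3 CPM in the Smad2 knockout, 3.68 and 10.9 CPM in the Smad3 knockout and 1 and 1.63 CPM in WT, with an interaction of -7.54 (SE 0.95; adjusted p = 0.00825). Its near-identical copies make that level uncertain, and replicate 2 was the higher library in the Smad2 knockout, the Smad3 knockout and WT. Rpph1, the RNA of RNase P, followed the same libraries, with 0.39 and 0.218 CPM in the double knockout, 3.63 and 20.8 CPM in the Smad2 knockout, 0.37 and 2.13 CPM in the Smad3 knockout and 0.0238 and 0.941 CPM in WT, and lost its call with the length offset (adjusted p = 0.134). Of 96 protein-coding genes with a ribosomal protein symbol (Rps or Rpl and a digit), 64 were called lower than additive and 1 higher. This was 67.7%, against 15.1% of all genes called. With the length offset 0 were higher and 1 lower, against 813 of all 19098 genes called. Their median difference from WT was -0.12 in the double and 1.25 in the Smad2 knockout. Picked by symbol, this set also holds genes of other products, such as Rps6ka6 and Rps19bp1.

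**Figure D5:**
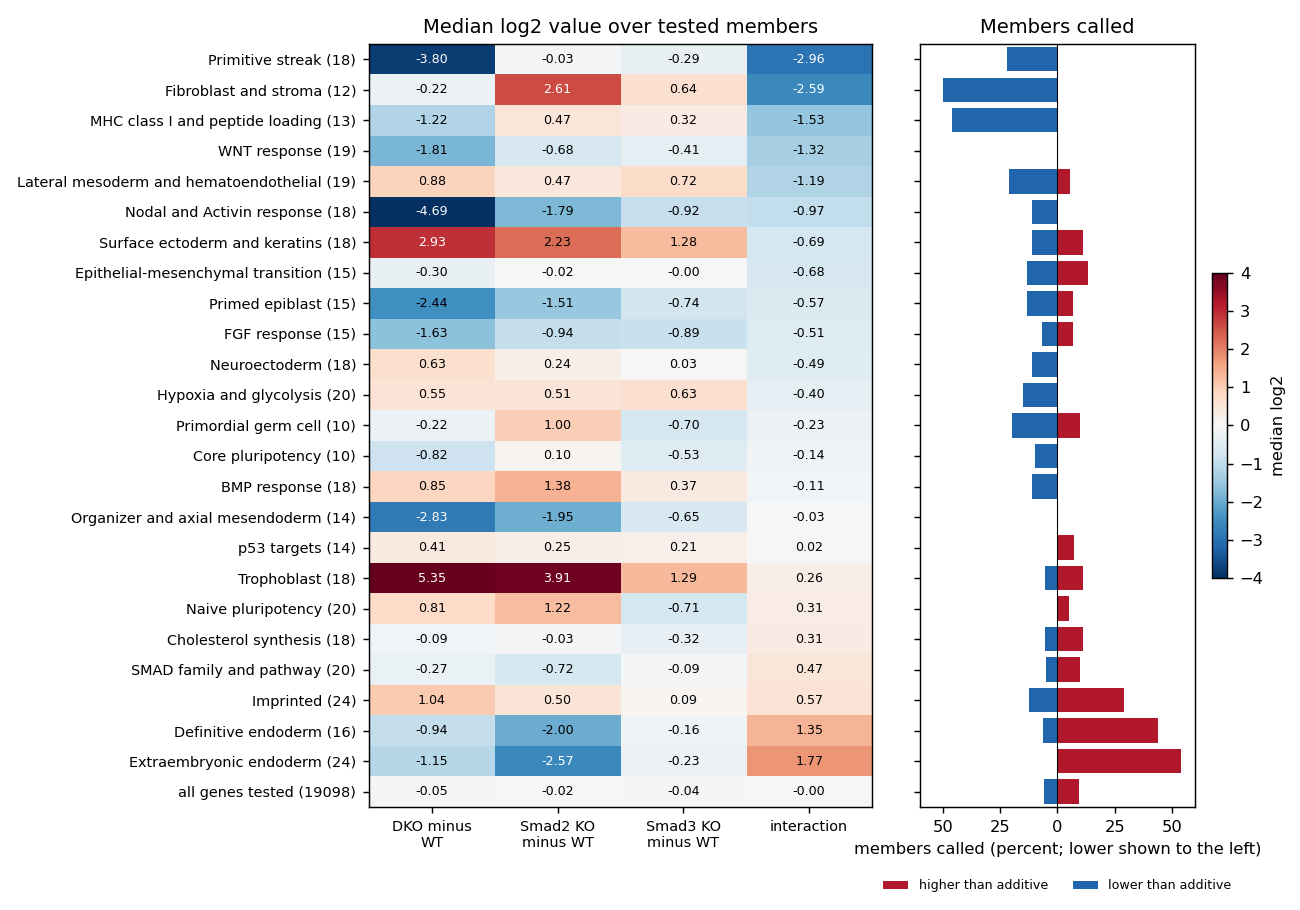
Median log2 values over the tested members of each gene list (number tested in brackets) for the 3 knockouts against WT and for the interaction, and the percent of members called higher or lower than additive. Extraembryonic endoderm has the largest median interaction, 1.77, and primitive streak the lowest, -2.96, of the lists drawn. The ribosomal protein set and the Y-linked list (median 5.43 over 4 tested members, none called) are not drawn.

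In the remaining lists the share of members called lay between 7.14 and 30%, against 15.1% of all genes. Higher and lower calls numbered 1 and 2 of 10 in primordial germ cells (30%), 2 and 2 of 15 in the epithelial-mesenchymal transition (26.7%), 2 and 2 of 18 in surface ectoderm and keratins (22.2%), and 2 and 1 of 18 in cholesterol synthesis (16.7%). They numbered 0 and 3 of 20 in hypoxia and glycolysis (15%), 1 and 1 of 15 in the FGF response (13.3%), and 1 and 0 of 14 in p53 targets (7.14%). With the length offset no member was called in the germ cell, transition and p53 lists, against 1 lower in surface ectoderm, 1 lower in hypoxia, 1 higher in cholesterol synthesis and 2 lower in the FGF response; over all genes that fit called 813. Zeb1, a repressor of epithelial genes, and Esrp2, an epithelial splicing regulator, were both higher than additive, at 2.03 (SE 0.39; adjusted p = 0.0183) and 1.21 (SE 0.33; adjusted p = 0.0439); with the length offset neither was called (adjusted p = 0.115 and 0.125). Vim, the mesenchymal intermediate filament, was lower at -2.43 (SE 0.50; adjusted p = 0.0212), with 26 and 26.5 CPM in the double knockout, 136 and 65.4 CPM in the Smad2 knockout, 54.6 and 69.3 CPM in the Smad3 knockout and 34.8 and 53.2 CPM in WT, and was also no longer called with the offset (adjusted p = 0.053). Krt8, the keratin of simple epithelia, had 987 and 1212 CPM in the double knockout, 1551 and 1004 CPM in the Smad2 knockout, 262 and 355 CPM in the Smad3 knockout and 70.5 and 165 CPM in WT, and its interaction of -1.60 (SE 0.56; adjusted p = 0.0852) did not pass.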

How the data were processed

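Bulk RNA-seq of 8 day 4 libraries was analysed; 2 libraries of WT stem cells at day 0 entered only 1 alternative, and 14 chromatin immunoprecipitation samples were not used. The authors deposited 1 gene table per library with expected counts from RSEM, per the file headers, and with TPM scaled by RSEM; effective lengths came from the same tables. Per the submitters' processing notes, the build was mm10 and the tools included STAR, RSEM, Bowtie2, HOMER and FastQC (version 0.11.5), listed without roles. The annotation version, and whether counting used strand, are not given in the sources used here. Gene IDs were matched to GENCODE M21 on GRCm38 (53274 of 53379 without the version).

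Expected counts were rounded and fitted with edgeR 4.0.16 in R 4.3.3 (filterByExpr, TMM factors, quasi-likelihood F test, 4 group means). SE is the absolute log2 value over the square root of F. CPM values use TMM library sizes. The additive expectation is the product of the single knockout means over the WT mean. On data simulated with additive effects and 200 changed genes, among 18654 genes tested, 4% of 2-fold and 57% of 4-fold interactions were called. None had the wrong sign, and 2 false calls were made. Simulated libraries of a group differed only by depth and the fitted dispersion, and the simulated interaction carried no length trend. The 2 false calls therefore do not cover length or the file-name series. Intervals on counts are exact at the 95% level and cover counting error only.

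Alternatives were size factors of DESeq2, library totals, no filter, a stricter filter, DESeq2 1.42.0, limma 3.58.1 on log2(TPM + 1) and log2(TPM + 0.1), a length offset (lowess, span 0.3), replicate and file-name series terms, all 10 RNA libraries, and leaving out each library. Members and lists were chosen with earlier results of these data known. Named were a fixed panel, up to 4 called members per list and direction, the 10 largest contrasts per direction and 5 per class among genes with at least 5 CPM in some group and 1 sign over all 16 choices of 1 library per group; of the 104 genes so chosen 85 were called, and some are left out for length. A few genes that the naming rule would include are not reported here.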

Additional observations from a re-analysis of the deposited data

Results flagged for a closer look

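The contrast is itself a test of whether the effect of losing Smad2 differs between backgrounds with and without Smad3. That difference was called for 1766 genes higher and 1116 genes lower than additive.

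For 191 genes, a count not repeated with the length offset, the effect of Smad2 loss was called in both backgrounds with opposite signs. Of these, 11 are among the named genes. Those with a positive interaction were Lama1 (3.99), Xlr5b (4.89), Xist (5.73), Efhc2 (5.12), Peg3 (2.60) and Eda2r (2.04), all log2 values. Those with a negative one were Psmb8 (-7.21), Adm (-3.28), Acta2 (-5.17), Tagln (-3.82) and Krt17 (-4.21). With 2 libraries a group, a test for single libraries that lie far from their group was not possible.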

How the results depend on the processing

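Counts of calls moved most with the libraries left out and with length. Leaving out 1 library at a time, genes called higher ranged from 11 to 3196 and genes called lower from 1 to 3455; where this left 1 library in a group, it was assumed to vary like the other groups. With the first file-name series only, 4069 genes were higher and 4011 lower. The length offset gave 488 and 325, limma on log2(TPM + 1) 5090 and 344, and on log2(TPM + 0.1) 5106 and 344, with the median of all genes shifted by 0.63 and 0.73. Genes called lower numbered 2240 without a filter and 1966 with DESeq2, and library totals shifted the median by 0.16. The share of called genes short of the sum or turned lay between 71.6 and 91.7% over 20 alternatives. The cause of these shifts was not tested.

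Replicate numbers did not pair the libraries across all 4 groups: deviations of same-numbered libraries correlated at 0.135 to 0.520 among the Smad2 knockout, the Smad3 knockout and WT, whose replicates 2 are in the second file-name series, and at -0.183 to -0.13 with the double knockout. With the replicate block 2729 genes were called, 1655 higher and 1074 lower, 2519 of them shared with the fit without it. With the file-name series as a term 3475 were called, 1973 higher and 1502 lower.

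Some of the 104 named genes changed sign. On the linear CPM scale these were, of the 85 called, Fgf5 (54.2), Kcnj3 (9.44), Hand1 (4.30), Sall2 (11.6) and Igf2 (318), and, of the 19 not called, 9: Lefty1 (40.9), Lefty2 (40.4), T (0.24), Mixl1 (9.45), Nodal (5.33), Lhx1 (12.1), Eomes (106), Gsc (5.11) and Gata3 (20.9). With the length offset it was Ifitm1 (0.049). On log2(TPM + 1) they were Bmp4 (0.16), Smad3 (0.18), Nodal (0.0022), Lhx1 (0.36), Eomes (0.27), Gsc (0.32) and Gata3 (1.46), and on log2(TPM + 0.1) Bmp4 (0.16), Smad3 (0.24), Lhx1 (0.42), Eomes (0.17) and Gata3 (0.90). Leaving out 1 library at a time, the contrast ranged from -7.47 to 0.55 for Mixl1, from -2.86 to 1.33 for Lhx1, from -1.90 to 0.30 for Eomes and from -0.80 to 0.36 for Gata3, with the positive end of each without Smad2 knockout replicate 1. For Sox2 it ranged from -0.15 without double knockout replicate 1 to 0.41 without replicate 2, and was -0.10 without Smad2 knockout replicate 1. Without double knockout replicate 2, 80 of the 85 called named genes lost their call, and with the length offset 41.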
